A study of Arabidopsis thaliana with 32 samples.

Results

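HSP23.5 (AT5G51440) and HSP26.5 (AT1G52560) encode mitochondrial small heat shock proteins. They were chosen by name and locus, with earlier results of these data known, and make up 2 of the 13333 loci with a named probe set. Each had 1 probe set, and both probe sets passed the filter on low signal. The plants were *Arabidopsis thaliana* of the accession Col-0, kept at 24 °C and 16 h of light a day on plates of Murashige and Skoog (MS) medium. Heat of 38 °C began on day 16, 3 h into the light. Shoots and roots were harvested separately after 0.25, 0.5, 1 and 3 h of heat, and 1, 3, 9 and 21 h after plants heated for 3 h had been moved to 25 °C. These 16 groups of tissue and time had 2 arrays each, 32 in all. Every plant had been heated, so 21 h of recovery was taken as the reference, and rises against them are understated wherever their level was itself still raised.

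Small heat shock proteins bind proteins that begin to unfold and hold them until ATP-driven chaperones can refold them. They share a conserved alpha-crystallin domain, and most plant members assemble into large oligomers. Land plants make separate forms for the cytosol, the endoplasmic reticulum, peroxisomes, plastids and mitochondria. Both proteins described here are encoded in the nucleus and are known as mitochondrial forms, of separate subgroups. Another mitochondrial gene, HSP23.6 (AT4G25200), was not analysed here. Whether HSP23.6 transcript binds to the HSP23.5 probes was not tested, and no measurement here bears on where the proteins reside.

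The values are signals from the MAS5 algorithm, with array medians of 31.6 to 49.0 and nearly equal trimmed means. A value below about 8 to 15, the 25th percentile of an array (8.46 to 15.2), is in the lowest 25% of probe sets. HSP23.5 was never that low, while HSP26.5 was on 8 of 32 arrays, all from shoots. Log2 signals of the 2 arrays of a group correlated at 0.984 to 0.993. Of 12 listed marker loci for each tissue, 4 had a named probe set. All 4 measured shoot markers, such as the Rubisco activase gene RCA, were higher on every shoot array than on any root array. Of 4 root markers, PYK10 and AT5G66390 were higher on every root array, and the root-hair expansins EXPA7 and EXPA18 overlapped at low signal. At single times 33% to 37.3% of all tested probe sets differed between the tissues by the test described below. How many of them separated on every array was not counted. Nothing in the labels says that the arrays of a group came from separate cultures, and the p-values therefore rest on variation that may be technical. Ribosomal 25S RNA signal rose in heat too, in shoots from 146 ± 47.6 (SD, 2 arrays) at 0.25 h to 2405 ± 7.74 at 3 h, and in roots from 722 ± 220.4 to 3080 ± 431. The actin 3′/5′ ratio, a sign of RNA quality, was 4.74 ± 1.51 and 13.7 ± 0.62 in shoots at these times and 10.97 ± 0.84 and 19.4 ± 3.52 in roots. In recovery the 25S signal was 203 ± 65.8 in shoots and 840 ± 38.7 in roots at 1 h. It was 1289 ± 27.2 and 2227 ± 132 at 3 h, and 679 ± 836 and 425 ± 206 at 9 h. The part of the 25S signal and the actin ratio in the rises and falls described next was not tested.

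After 0.25 h of heat neither gene passed as higher in either tissue. HSP23.5 signal in shoots was 22.1 and 20.0 after 0.25 h and 22.5 and 17.5 at 21 h of recovery, overlapping levels. HSP26.5 was at 0.92 and 1.82 in shoots after 0.25 h and at 7.44 and 2.84 at 21 h, all below the 25th percentile of their arrays. Against 21 h of recovery, 0 of 2 genes passed the test in shoots (log2 differences 0.05 and −0.38, adjusted p = 0.956 and 0.537), where 0.798% of all tested probe sets did. A probe set passed with an adjusted p-value below 0.05 in limma and a log2 difference of at least 1. Differences were taken on log2(signal + 10.73), which shrinks those of dim probes. The standard error was 0.25 for HSP23.5 and 0.27 for HSP26.5 in every comparison of 2 groups.

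Signals of both genes were higher in roots at this time. HSP23.5 was at 70.5 and 109 after 0.25 h, against 46.5 and 53.3 at 21 h of recovery (log2 difference 0.70, adjusted p = 0.108). HSP26.5 was at 14.2 and 22.3, against 55.0 and 44.1. HSP23.5 did not pass here, and whether the 2 genes differed in their change was not tested. HSP26.5 passed as lower (−1.06, adjusted p = 0.0223, with 0.119% of probe sets lower), but without root replicate 1 at 0.25 h the value was −0.86 and the adjusted p-value 0.242. Leaving out either root array at 21 h also ended the call (adjusted p = 0.156 without replicate 1 and 0.0753 without replicate 2).

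At 0.5 h of heat HSP23.5 had risen in both tissues and HSP26.5 had not yet done so in shoots. HSP23.5 reached 410 and 206 in shoots and 544 and 482 in roots, above every array at 0.25 h. HSP26.5 stood at 4.26 and 0.46 in shoots, still below the 25th percentile, and at 39.1 and 57.1 in roots. Against 21 h of recovery, 1 of 2 genes passed in each tissue, HSP23.5 by 3.30 in shoots (adjusted p = 8.38e-10) and by 3.11 in roots (5.89e-09). In all, 1.25% of probe sets were higher in shoots and 1.41% in roots. The rise of HSP23.5 was the 9th highest among 16782 probe sets in shoots and the 7th highest in roots. HSP26.5 was at −0.28 and −0.05, with adjusted p-values of 0.545 and 0.94.

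From 0.25 to 0.5 h 1 of 2 genes rose in shoots and 2 of 2 in roots. HSP23.5 rose by 3.25 in shoots (adjusted p = 1.25e-09) and by 2.41 in roots (5.37e-07). HSP26.5 rose by 1.02 in roots (adjusted p = 0.0175), a call that ended without root replicate 1 at 0.25 h (0.81, 0.184) or replicate 2 at 0.5 h (0.80, 0.196). In shoots HSP26.5 was at 0.10 (0.879). The share of all probe sets that rose in this step was 1.04% in shoots and 0.793% in roots.

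**Figure D1:**
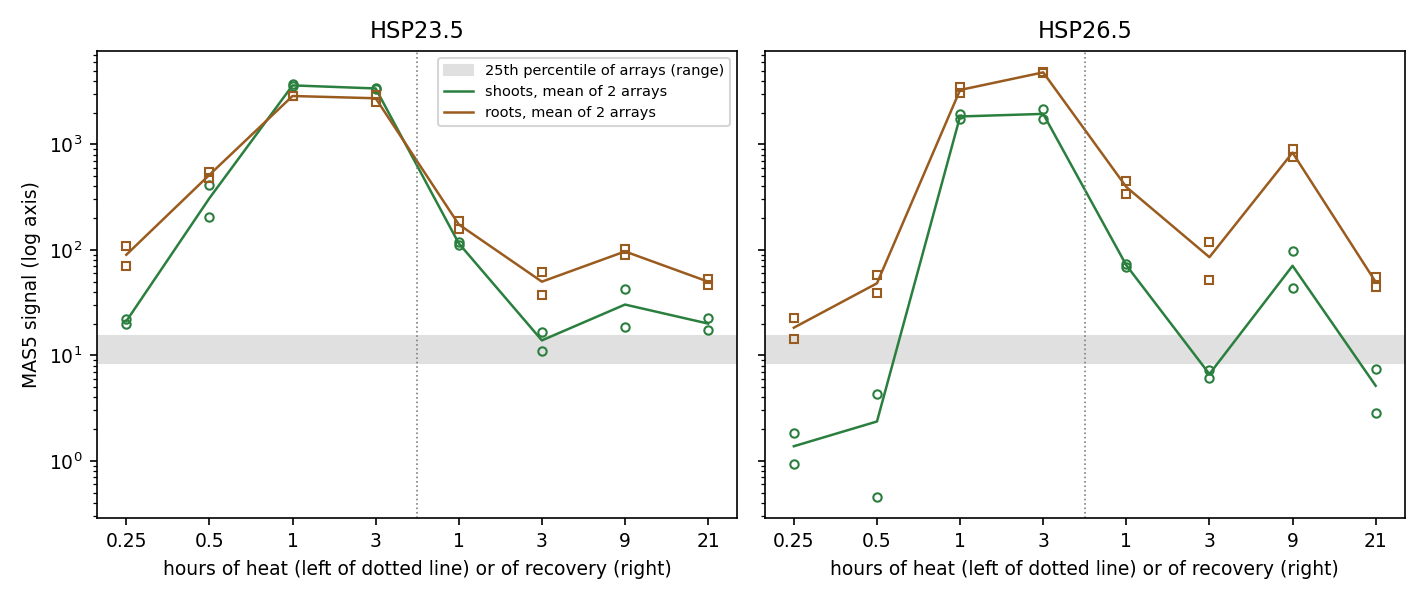
MAS5 signal of HSP23.5 (left) and HSP26.5 (right) on a log axis at 4 times of heat and 4 of recovery. Circles (shoots) and squares (roots) are single arrays, lines join means of 2 arrays, and the grey band is the range of the arrays' 25th percentiles. HSP23.5 is already high at 0.5 h, whereas HSP26.5 rises between 0.5 and 1 h and comes up again at 9 h of recovery.

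Between 0.5 and 1 h both genes reached levels near the top of the array. HSP26.5 in shoots went from 4.26 and 0.46 to 1743 and 1927, and in roots from 39.1 and 57.1 to 3480 and 3064. HSP23.5 went to 3696 and 3538 in shoots and to 2853 and 2885 in roots. On every one of these 1 h arrays each gene exceeded at least 98.3% of gene probe sets. The step of HSP26.5 was 7.15 in shoots (adjusted p = 3.30e-16), second highest of 16782 probe sets, and 5.82 in roots (2.81e-14), the 4th highest. That of HSP23.5, which had begun earlier, was 3.59 (2.74e-11) and 2.46 (3.89e-08). Both genes thus passed in both tissues, with 2.44% of probe sets higher in shoots and 2.16% in roots.

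Against 21 h of recovery, 2 of 2 genes were higher at 1 h and at 3 h in each tissue. All comparisons with that time share its 2 arrays per tissue. At 1 h the log2 differences in shoots were 6.89 for HSP23.5 (adjusted p = 3.61e-17) and 6.87 for HSP26.5 (2.36e-16), where 3.44% of all probe sets were higher. In roots they were 5.57 (4.18e-15) and 5.77 (1.29e-14), where 3.59% were higher. At 3 h HSP23.5 was 6.79 above its reference in shoots and 5.50 in roots, and HSP26.5 was 6.95 and 6.33 above, with 7.13% of probe sets higher in shoots and 6.76% in roots. Over all probe sets the median difference in roots was −0.14 at 1 h and −0.15 at 3 h, far from either gene. Neither gene passed a change between 1 and 3 h.

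At 3 h HSP23.5 was at 3414 and 3351 in shoots and at 2539 and 2922 in roots. HSP26.5 was at 2143 and 1739 in shoots and at 4846 and 4764 in roots. From 1 to 3 h 0 of 2 genes passed in shoots (−0.10 and 0.07, adjusted p = 0.804 and 0.866), where 5.08% of probe sets did, and 0 of 2 in roots, where 5.86% did. The root values were −0.07 for HSP23.5 (0.842) and 0.56 for HSP26.5 (0.11). Both root arrays of HSP26.5 were higher at 3 h than either at 1 h, by 1.47-fold in the means, a difference that missed both thresholds. By 1 h HSP23.5 had thus reached 107% of its 3 h mean in shoots and 105% in roots, and HSP26.5 had reached 94.5% in shoots and 68.1% in roots.

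**Figure D2:**
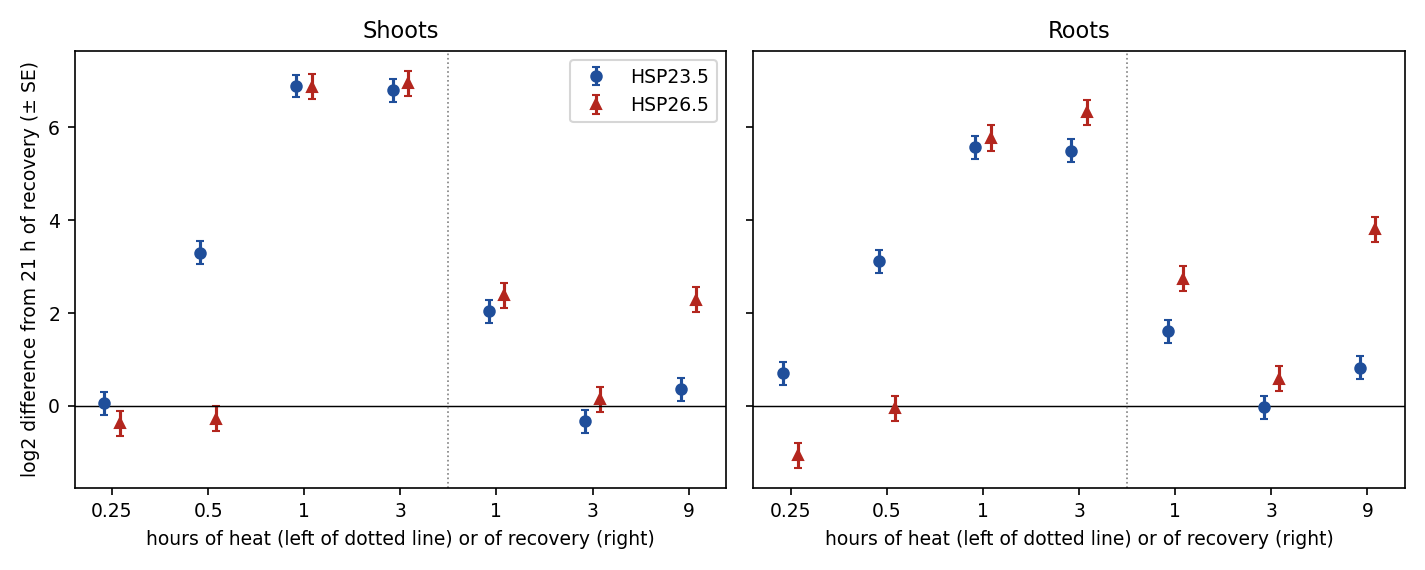
Log2 difference of each heat and recovery time from 21 h of recovery in shoots (left) and roots (right), with bars of 1 standard error from the fit over 32 arrays. At 0.5 h only the HSP23.5 points lie well above 0, and at 9 h of recovery the HSP26.5 points (2.29 and 3.81) lie above those of HSP23.5 (0.36 and 0.82).

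After the return to 25 °C both transcripts were lost quickly. At 1 h of recovery HSP23.5 was at 110 and 120 in shoots and at 158 and 189 in roots. HSP26.5 was at 69.2 and 73.6 in shoots and at 334 and 453 in roots. In shoots 3.40% of the 3 h mean of HSP23.5 was left and 3.68% of that of HSP26.5, and in roots 6.37% and 8.19%. Both genes passed as lower in each tissue, among 4.59% of probe sets in shoots and 4.2% in roots. HSP23.5 fell by 4.75 in shoots (adjusted p = 7.44e-14) and by 3.89 in roots (5.09e-12), the 14th deepest decrease in each. HSP26.5 fell by 4.56 (7.59e-13) and by 3.59 (1.17e-10). The median over all probe sets was 0.14 in shoots and 0.15 in roots.

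Even so, 2 of 2 genes remained above 21 h of recovery at this time. The excess in shoots was 2.04 for HSP23.5 (adjusted p = 2.12e-07) and 2.39 for HSP26.5 (7.82e-08), with 5.72% of probe sets higher. In roots it was 1.60 (1.28e-05) and 2.74 (1.87e-08), with 2.69% higher.

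The decline went on to 3 h of recovery. HSP23.5 reached 10.96 and 16.7 in shoots and 37.6 and 62.1 in roots, and HSP26.5 reached 7.24 and 6.04 in shoots and 51.8 and 118 in roots. From 1 to 3 h of recovery HSP23.5 changed by −2.37 in shoots (adjusted p = 6.03e-08) and −1.63 in roots (1.44e-05), and HSP26.5 by −2.24 (5.28e-07) and −2.15 (1.35e-06). All 4 passed, where 2.57% of probe sets in shoots and 2.06% in roots were lower. No difference from 21 h of recovery passed at 3 h, in shoots (−0.33 and 0.14, adjusted p = 0.307 and 0.708, with 10.4% of probe sets changed) or in roots (−0.03 and 0.58, 0.953 and 0.123, with 3.21% changed). For HSP26.5 in roots the 2 arrays differed, and without replicate 1 at 3 h it passed at 1.11 (adjusted p = 0.0082).

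HSP26.5 came up again later and HSP23.5 did so far less. At 9 h of recovery HSP26.5 was at 97.5 and 43.6 in shoots and at 911 and 757 in roots, where its mean was 17.35% of that at 3 h of heat and lay above that at 1 h of recovery. HSP23.5 was at 42.1 and 18.4 in shoots and at 90.1 and 103 in roots. In roots the step from 3 to 9 h of recovery was 3.23 for HSP26.5 (adjusted p = 5.64e-09), the highest of 16782 probe sets, and 0.85 for HSP23.5 (0.0116), under the log2 threshold. With a constant 4 times as small it ranked 4th, and under the other settings that kept all arrays of roots it ranked 1st. Its rank with an array left out was not computed. Of all probe sets 1.28% rose in this step in roots.

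In shoots the step was 2.14 for HSP26.5 (adjusted p = 1.01e-06) and 0.68 for HSP23.5 (0.0329), and 3.04% of probe sets rose. Replicate 1 of shoots at 9 h was the higher array for both genes. It also had a 25S signal of 1270 against 88.6 on replicate 2, and an actin 3′/5′ ratio of 9.28 against 3.88. Without that array HSP26.5 still rose, by 1.65 (adjusted p = 0.000118), and HSP23.5 was at 0.25. Without replicate 2 HSP23.5 was at 1.12 (0.00282) and passed. In roots HSP23.5 passed only without replicate 2 at 3 h of recovery (1.15, 0.00736).

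Compared with 21 h of recovery, 1 of 2 genes was higher at 9 h in each tissue. HSP26.5 was higher by 2.29 in shoots (adjusted p = 3.38e-07), where 2.98% of probe sets were, and by 3.81 in roots (1.97e-10), where 1.12% were. HSP23.5 was at 0.36 in shoots (0.311) and 0.82 in roots (0.0314). The 9 h harvest fell at hour 15 of the light and the 21 h harvest at hour 3, so recovery and time of day cannot be told apart. HSP26.5 was back to 7.44 and 2.84 in shoots and 55.0 and 44.1 in roots at 21 h.

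A sequence of 4 calls describes this course: higher at 3 h of heat than at 21 h of recovery, lower at 1 h of recovery, and higher at 9 h than at both 3 and 21 h. It was set after the course of HSP26.5 had been seen, so its counts only describe how common the course was. Of 1196 probe sets higher at 3 h of heat in shoots, 572 were lower at 1 h of recovery, 68 of these rose to 9 h and 13 of those exceeded 21 h. In roots the counts were 1135, 565, 56 and 34. HSP26.5 was in the last set in both tissues and HSP23.5 in neither. Only 8 probe sets were in both, 5 of them with a named gene: HSP26.5, the peroxisomal small heat shock protein gene HSP15.7, HSA32, which acts in the retention of acquired thermotolerance, AT5G07330 and AT4G23493.

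Over the 16 groups the means of HSP23.5 ordered as shoots at 1 h of heat (3617 ± 112, SD), shoots at 3 h (3382 ± 44.8), roots at 1 h (2869 ± 22.5) and roots at 3 h (2731 ± 271). Then came roots at 0.5 h (513 ± 43.8), shoots at 0.5 h (308 ± 144), roots at 1 h of recovery (174 ± 21.96) and shoots at 1 h of recovery (115 ± 6.57). These 8 groups span the heat from 0.5 h on and the first hour of recovery. The lower groups were roots at 9 h of recovery (96.4 ± 8.88), roots at 0.25 h (89.7 ± 27.1), and roots at 21 h (49.9 ± 4.77) and 3 h (49.9 ± 17.37). Last were shoots at 9 h of recovery (30.3 ± 16.8), 0.25 h of heat (21.0 ± 1.504), 21 h (20.0 ± 3.51) and 3 h of recovery (13.8 ± 4.07). Arrays of neighbouring groups overlapped at 6 of 15 places: between the root groups at 1 and 3 h of heat, between roots at 9 h of recovery and at 0.25 h of heat, and at each place from roots at 21 h of recovery down to shoots at 21 h. The 4 groups at 1 and 3 h of heat stood apart from all others. Places of overlap were not counted for other probe sets.

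HSP26.5 had another order, led by roots. Its means were 4805 ± 57.7 in roots at 3 h of heat and 3272 ± 294 at 1 h, then 1941 ± 286 and 1835 ± 131 in shoots at 3 and 1 h. Roots at 9 h of recovery (834 ± 109) and 1 h of recovery (394 ± 83.7) followed, ahead of every shoot group outside the heat. Below them lay roots at 3 h of recovery (85.1 ± 47.1), shoots at 1 h (71.4 ± 3.13) and 9 h of recovery (70.5 ± 38.1), roots at 21 h (49.5 ± 7.77), roots at 0.5 h of heat (48.1 ± 12.7) and roots at 0.25 h (18.3 ± 5.75). The last 4 were shoots at 3 h (6.64 ± 0.85) and 21 h of recovery (5.14 ± 3.25) and at 0.5 h (2.36 ± 2.69) and 0.25 h of heat (1.37 ± 0.64). Neighbours overlapped at 8 of 15 places, which were the shoot groups at 3 and 1 h of heat, every place from roots at 3 h of recovery to roots at 0.5 h of heat, and every place among the last 4. For each gene the groups were sorted by its own means, and other probe sets were not counted in this way. The counts of overlapping places therefore only describe the order. Levels of the 2 probe sets were not set against each other, since signals of different probes are not on a common scale.

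HSP26.5 was lower in shoots than in roots at all 8 times, with a log2 difference of down to −3.45. In bulk tissue fewer cells of a type and less RNA per cell cannot be told apart. The differences (shoots minus roots) were −1.25 at 0.25 h (adjusted p = 0.00021), −2.17 at 0.5 h (9.72e-08), −0.83 at 1 h (0.0082) and −1.31 at 3 h (0.000128). In recovery they were −2.28 at 1 h (4.24e-08), −2.37 at 3 h (2.22e-08), −3.45 at 9 h (1.89e-11) and −1.93 at 21 h (5.67e-07). All but that at 1 h of heat passed, and the arrays of the tissues did not overlap at any time. How many other probe sets had no overlap was not counted. The median over all probe sets was itself −0.34 to −0.20 in these comparisons, and each value is to be set against that shift. With a constant 4 times as large those at 0.25 h of heat (−0.46) and 21 h of recovery (−0.94) did not pass, and after quantile normalization that at 1 h of heat did (−1.41).

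HSP23.5 was lower in shoots at low levels and not at the height of the heat. It passed as lower at 3 of 8 times, with −1.63 at 0.25 h of heat (adjusted p = 1.81e-06), −1.28 at 3 h of recovery (5.44e-05) and −1.45 at 9 h (1.00e-05). At 1 and 3 h of heat it was at 0.33 and 0.31 (0.226 and 0.261). At 0.5 h, at 1 h and at 21 h of recovery it was at −0.79, −0.55 and −0.98, under the threshold in size. Without shoot replicate 1 it passed at 0.5 h (−1.27), and without replicate 1 of either tissue it passed at 21 h of recovery (−1.10 for shoots left out, −1.06 for roots). Without root replicate 2 the value at 3 h of recovery was −0.99, and with a constant 4 times as large those at 3 and 9 h of recovery were −0.70 and −0.95. None of these 3 passed. Shares of all probe sets that were lower in shoots were 20.9%, 20.4%, 20.1% and 19.3% over the 4 heat times and 19.1%, 18%, 20.6% and 21.8% over the 4 recovery times. A tissue difference was thus common among all probe sets.

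**Figure D3:**
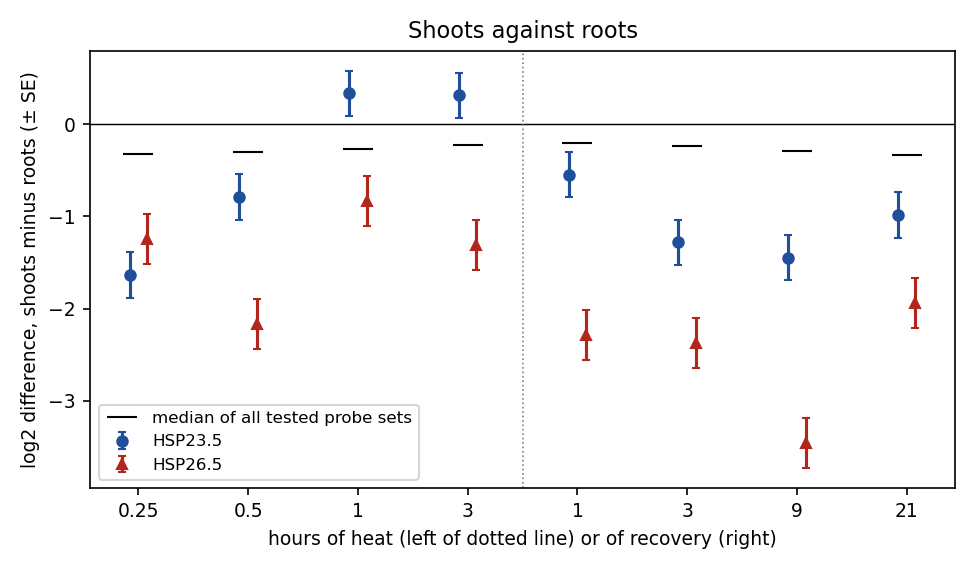
Log2 difference between shoots and roots at each time, with bars of 1 standard error, for HSP23.5 (circles) and HSP26.5 (triangles). Short black lines are the medians of all tested probe sets. HSP26.5 lies below them at all 8 times, farthest at 9 h of recovery (−3.45), and HSP23.5 lies above them at 1 and 3 h of heat.

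Whether the tissues differed in how far a gene moved was tested directly. HSP23.5 rose more in shoots, by 1.32 at 1 h of heat (adjusted p = 0.0104) and by 1.29 at 3 h (0.00488), with a standard error of 0.35, starting from a lower 21 h level there. In these comparisons 2.22% and 6.88% of probe sets were higher. After quantile normalization the values were 0.34 and 0.48 and did not pass (0.554 and 0.289), and with a constant 4 times as large they were 0.89 and 0.87, under the log2 threshold. HSP26.5 passed at 1 h with 1.10 ± 0.38 (0.0485), but not after quantile normalization (0.27) or under 4 other settings, nor when any 1 of 7 of the 8 arrays was left out. The exception was shoot replicate 1 at 21 h of recovery.

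On the log2(signal + 10.73) scale the late rise of HSP26.5 was larger in roots, but in ratios of mean signals the step from 3 to 9 h of recovery was 10.6-fold in shoots and 9.80-fold in roots. The ratio of 9 to 21 h was 13.7-fold in shoots and 16.8-fold in roots. The shoot means at 3 and 21 h (6.64 and 5.14) lay below the 25th percentile, where the added constant shrinks a difference most. The excess of HSP26.5 at 9 h over 21 h of recovery differed by −1.52 between shoots and roots (adjusted p = 0.00613, with 2.67% of probe sets lower), and the step from 3 to 9 h by −1.08 (0.0398, 3.07%). With a constant 4 times as small these were −0.82 (0.316) and −0.49 (0.55) and did not pass. Without replicate 2 of shoots at 9 h they were −1.02 (0.0543) and −0.59 (0.264). Leaving out either shoot array at 3 h (−1.03 and −1.13), root replicate 1 at 3 h (−0.56) or root replicate 1 at 9 h (−0.95) also ended the call for the step. For the loss within 1 h of recovery 0 of 2 genes passed, at −0.86 for HSP23.5 (0.0689) and −0.97 for HSP26.5 (0.0611), while 3.74% of probe sets were lower. Without root replicate 1 at 1 h of recovery the HSP26.5 value was −1.19 (0.0491). In all, 8 of 10 such comparisons did not pass for HSP23.5 and 7 of 10 for HSP26.5.

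Other small heat shock protein genes give the frame for the pair. Of 20 listed loci 11 had a named probe set, the 2 mitochondrial genes included. At 1 h of heat 8 of 11 were higher than at 21 h of recovery in each tissue, with a median of 5.18 in shoots and 5.47 in roots, against 3.44% and 3.59% of all probe sets. The members that did not pass were HSP15.4, AT5G54660 and AT5G47600. At 0.5 h 4 of 11 had passed in shoots, HSP23.5 (3.30), HSP17.4-CIII (3.06), HSP17.6B (1.79) and HSP18.5 (1.35), and 3 in roots, HSP17.4-CIII (3.35), HSP23.5 (3.11) and HSP17.6B (1.52), against 1.25% and 1.41% of all probe sets. HSP26.5 did not pass at 0.5 h, and neither did HSP17.6C of the cytosol (0.45 in shoots), the endoplasmic reticulum member ATHSP22.0 (−0.39) or HSP15.7 (0.34), all of which passed at 1 h.

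Within 1 h of recovery 5 of 11 had fallen in each tissue: HSP23.5, HSP26.5, HSP15.7 (−6.04 in shoots, −5.10 in roots), HSP17.4-CIII (−4.09 and −1.22) and HSP18.5 (−2.83 and −3.41). Of all probe sets 4.59% fell in shoots and 4.2% in roots. HSP17.6B (−0.66 and −0.46), HSP17.6C (−0.84 and −0.36) and ATHSP22.0 (−0.26 and −0.43) did not pass. From 3 to 9 h of recovery 4 of 11 rose in shoots and 3 in roots, against 3.04% and 1.28% of all probe sets. HSP26.5, HSP15.7 (3.86 in shoots, 2.30 in roots) and HSP18.5 (2.09 and 1.82) did so in both, and HSP17.4-CIII in shoots (1.87). In shoots HSP17.6B (−1.24) and ATHSP22.0 (−1.51) fell in this step, and in roots HSP15.4 did (−1.24), where 2.56% and 2.19% of all probe sets fell. HSP23.5 was the 1 gene of the 5 lost within 1 h of recovery that passed no rise to 9 h in either tissue, and whether its step differed from theirs was not tested.

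Few other genes of mitochondrial protein care could be followed. Of 15 listed mitochondrial chaperone loci 3 had a named probe set, and the 1 beside the pair, AT5G06410, was at 0.18 in shoots and −0.08 in roots after 1 h of heat and did not pass. Among 3 of 14 listed proteases and prohibitins, AT5G51740 rose in heat, by 1.85 in shoots (376 ± 23.0 against 96.1 ± 3.84, adjusted p = 5.64e-13) and by 1.47 in roots (450 ± 36.2 against 155 ± 1.34, 7.70e-11). From 3 h of heat to 1 h of recovery it fell by 1.68 in shoots and fell by 1.64 in roots. At 1 h of heat, the time of the rises given for AT5G51740, 3.44% of all probe sets were higher in shoots and 3.59% in roots. In the step to 1 h of recovery 4.59% and 4.2% fell. AT5G49840 and NCLPP7, a subunit of the Clp protease, did not pass at 1 or 3 h of heat in either tissue.

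Of 11 listed genes of mitochondrial stress and alternative respiration 2 were measured. AT2G21640 passed at 3 h of heat and not at 1 h. It was at 0.61 in shoots and 0.31 in roots at 1 h of heat, and 3.89 (824 ± 69.5 against 45.4 ± 3.10) and 2.60 (198 ± 46.9 against 23.4 ± 0.35) at 3 h. NDB2, an alternative NAD(P)H dehydrogenase, did not pass at 1 or 3 h of heat in either tissue. At 3 h 7.13% of all probe sets were higher in shoots and 6.76% in roots. From 3 h of heat to 1 h of recovery AT2G21640 passed as lower in both tissues (−2.41 in shoots, −1.59 in roots) and NDB2 in roots only. Of all probe sets 4.59% fell in shoots and 4.2% in roots.

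**Figure D4:**
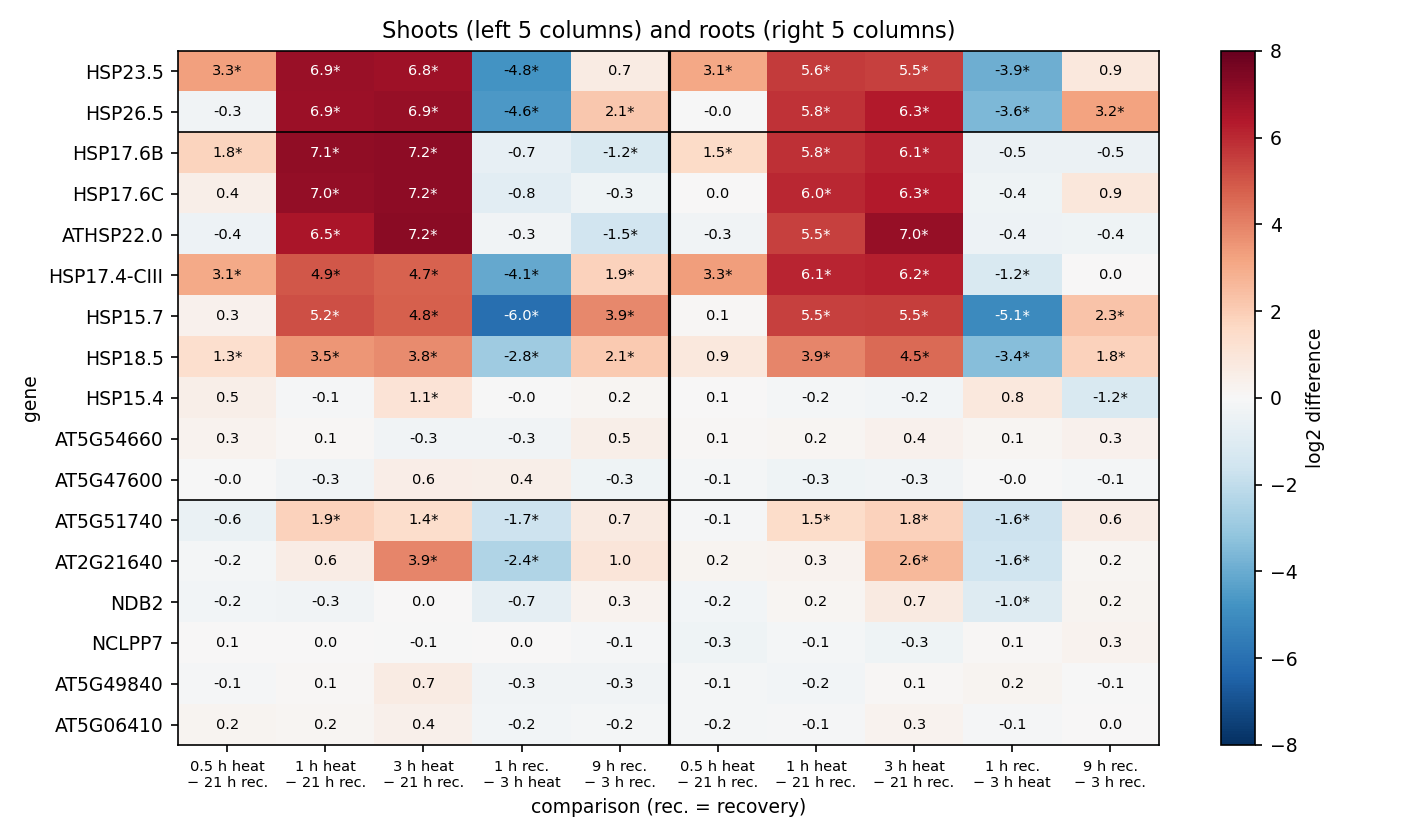
Log2 differences of 17 genes in 5 comparisons in shoots (left) and roots (right), with an asterisk where a gene passed. The mitochondrial pair is at the top, then 9 other small heat shock protein genes, then 6 other listed genes of mitochondrial protein care and stress. Of the pair, only HSP23.5 passed at 0.5 h of heat and only HSP26.5 for 9 h against 3 h of recovery.

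Across the 16 group means of log2 signal the pair correlated at r = 0.813, over 8 shoot means at 0.869 and over 8 root means at 0.754. These points share the arrays and the heat. For HSP23.5, 207 of 16782 probe sets, its own included, had a higher r than HSP26.5. For HSP26.5, 194, its own included, had a higher r than HSP23.5. The 5 named genes most like HSP23.5 were AT5G25450 (r = 0.968), AT1G30070 (0.966), AT4G22740 (0.966), AT3G12050 (0.961) and AT1G26800 (0.957). Those most like HSP26.5 were AT5G58787 (0.975), AT5G11680 (0.955), AT5G42150 (0.943), AT5G51740 (0.939) and AT5G10695 (0.933), the 4th being the listed protease gene given above. Against the mean of both genes the highest were AT5G25450 (0.986), AT5G10695 (0.981), AT4G15420 (0.970), AT5G58787 (0.966) and AT4G22740 (0.963). The neighbours of the 2 genes had no locus in common among their first 5. AT5G10695 was at 1845 in shoots and 3143 in roots at 3 h of heat, against 22.6 and 82.9 at 21 h of recovery.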

How the data were processed

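Total RNA from 32 samples was measured on 1-colour oligonucleotide arrays with biotin label. The deposited signal was made by the authors with MAS5, per the submitters' processing notes; the version is not given in the sources used here. A 2% trimmed mean was 99.0 to 99.5 on every array. Of 22810 probe sets, 64 controls were left out. Of the other 22746, 13513 had 1 gene in the platform annotation (2 of them for the pair), 503 several and 8730 none. The matched loci and symbols came from the RefSeq gene table (TAIR10.1), and names of small heat shock proteins it lacks are common names of the loci.

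Signals were log2-transformed after adding 10.73, the median of the arrays' 25th percentiles. A probe set was kept when, in some group, both its arrays exceeded their 40th percentile (16782, with or without a named gene). A model with 16 group means was fitted with limma 3.58.1 in R 4.3.3 (lmFit, eBayes with trend; 16 residual degrees of freedom), with 46 contrasts and Benjamini-Hochberg adjustment over all kept probe sets within each. The script was tested on simulated data. Alternatives were a constant 4 times as large or small, no filter, quantile normalization, scaling to the 75th percentile, the arrays of 1 tissue alone, no variance trend, the replicate number as a block, and leaving out each array. Tables were made with Python 3.11.15 and pandas 2.3.3.

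Members and lists were chosen with earlier results of these data known. Named genes are the pair, every measured gene of the lists, and the 5 named genes with the highest r to each. Sequences were not used here. With 2 arrays a group an exact permutation test of a single gene could not reach significance, so none was run.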

Additional observations from a re-analysis of the deposited data

Results flagged for a closer look

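Of the comparisons of change between tissues, 5 passed, 2 of 10 for HSP23.5 and 3 of 10 for HSP26.5. In these comparisons 2.22% to 6.88% of all probe sets passed in the same direction. For HSP23.5 the rise over 21 h of recovery was larger in shoots than in roots by 1.32 (log2) at 1 h of heat and by 1.29 at 3 h. For HSP26.5 it was larger in shoots by 1.10 at 1 h. Also for HSP26.5, on the log2(signal + 10.73) scale, the excess at 9 h over 21 h of recovery was smaller in shoots (−1.52), as was the step from 3 to 9 h of recovery (−1.08). The ratios of mean signals for that step were 10.6-fold in shoots and 9.80-fold in roots, with shoot means at 3 and 21 h below the 25th percentile. None of the 5 passed under every alternative, and the reasons were not tested.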

How the results depend on the processing

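Of 46 comparisons for each gene, 53 results passed and 39 did not. Of these, 42 and 31 kept their call under every alternative, and no called result changed direction. A change of sign was not counted where neither fit passed. One example is HSP23.5 in shoots at 0.25 h of heat against 21 h of recovery (−0.063 to 0.17 with an array left out). With a constant 4 times as large, 9 calls ended: shoots against roots for HSP23.5 at 3 h (−0.70) and 9 h of recovery (−0.95) and for HSP26.5 at 0.25 h of heat (−0.46) and 21 h of recovery (−0.94), the tissue differences in the rise at 1 and 3 h of heat for HSP23.5 (0.89, 0.87) and at 1 h for HSP26.5 (0.12), and HSP26.5 in roots from 0.25 to 0.5 h (0.57) and at 0.25 h against recovery at 21 h (−0.60). With a constant 4 times as small, HSP23.5 in shoots against roots at 21 h of recovery (−1.22) and the tissue difference of HSP26.5 at 3 h of heat (1.48) passed, and those at 9 h of recovery against 21 h (−0.82) and 3 h (−0.49) did not. After quantile normalization the tissue differences at 1 h (0.34) and 3 h of heat (0.48) for HSP23.5 and at 1 h for HSP26.5 (0.27) did not pass, nor did the HSP26.5 step in roots from 0.25 to 0.5 h (0.98), while HSP26.5 in shoots against roots at 1 h of heat did (−1.41). The HSP26.5 tissue difference at 1 h of heat (1.10) also ended without the filter, without a variance trend and with the replicate number as a block (adjusted p = 0.0541), and that from 3 to 9 h of recovery (−1.08) without the filter and without a trend. The replicate block changed no other call. Deviations of same-numbered arrays from their group means correlated at a median of 0.004 over 120 pairs of groups (−0.193 to 0.161). Those above 0.1 in size were 3 positive and 7 negative. The reported fit did not pair arrays by number, and these values cannot show whether same-numbered arrays shared a batch. The causes were not tested.

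Leaving out each array in turn changed these calls, with ranges as follows. For HSP23.5 they were 0.25 to 1.12 (shoots) and 0.55 to 1.15 (roots) from 3 to 9 h of recovery, and for shoots against roots −1.27 to −0.31 at 0.5 h of heat, −1.58 to −0.99 at 3 h and −1.10 to −0.87 at 21 h of recovery. For HSP26.5 in roots they were −1.27 to −0.86 at 0.25 h of heat and 0.060 to 1.11 at 3 h of recovery, both against 21 h, and 0.80 to 1.24 from 0.25 to 0.5 h. Its tissue differences ranged from 0.89 to 1.31 at 1 h of heat, −2.02 to −1.02 at 9 against 21 h, −1.19 to −0.76 at 1 h of recovery against 3 h of heat, and −1.61 to −0.56 at 9 against 3 h. Among list counts at 1 and 3 h of heat and 1 h of recovery, 2 moved, both for roots at 1 h of recovery against 3 h of heat. These were small heat shock proteins higher (1, from 0, with the smaller constant) and mitochondrial stress genes lower (1, from 2, with the larger constant). A count was taken to move only if it changed by a large ratio or to or from 0, and smaller shifts are not given. Shares of all probe sets called varied with the setting, in roots, between 3 h of heat and recovery at 21 h, from 9.16% to 21.7% in both directions together, against 17% under the reported settings. HSP26.5 in shoots lay below the 25th percentile at 4 times, which limits the size of differences from them.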
